A study of Mus musculus with 3 samples.

Results

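Rab GTPases are small membrane-associated switches, and the set described here is the 57 gene symbols, of 25791 in the authors' table, that are written as Rab followed by a number and at most 1 letter. Rab27a, Rab32 and Rab38 were read as the 3 melanosome members, after their known place in pigment cells. Expression came from 3 mouse melanoma cell lines, YUMM1.7, YUMM2.1 and YUMM1.1, in a study of PD-1 blockade in mice carrying transplanted melanoma. Total RNA of each line was sequenced as 1 library, and the labels name the line only, with no genotype, treatment, passage or tumor response. The YUMM collection, whose name stands for Yale University Mouse Melanoma, came from tumors of engineered mice, as background, and each member of it is a single line, so a difference between lines cannot be told apart from one between cultures or between libraries. There are no replicates, so no p-value is given anywhere.

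A Rab protein cycles between a GDP-bound form held in the cytosol and a GTP-bound form that sits on a membrane through a lipid anchor and recruits effectors such as motors and tethers. Different members mark different compartments, from the endoplasmic reticulum and Golgi to endosomes, lysosomes and secretory vesicles. In melanocytes, Rab32 and Rab38 direct pigment enzymes to maturing melanosomes after activation by BLOC-3 (Hps1 and Hps4), and Rab27a ties mature melanosomes to the motor myosin Va (Myo5a) through the linker melanophilin (Mlph). Loss of Rab27a or of Rab38 lightens the coat of mice.

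The start-site regions of Rab27a and Rab32, from the melanosome group, and of Rab17, the member with the widest difference between lines, are shown. They are RefSeq windows on GRCm38.p6 running from 250 bases before to 50 bases after an annotated start, written 5′ to 3′ on the gene's strand, with motif matches in capitals. Both strands were searched for 4 short motifs. The first is TCATGTG, the extended E-box that the melanocyte factor MITF is known to bind. The second is the E-box CACGTG, which reads the same on both strands and is shared by many factors. The third is the shorter E-box CATGTG. The last is ACAAAG, of the kind bound by SOX factors such as Sox10. TCATGTG contains CATGTG, so every match of the longer one is also a match of the shorter one.
Rab27a, first start, chr9:73044560-73044859, plus strand: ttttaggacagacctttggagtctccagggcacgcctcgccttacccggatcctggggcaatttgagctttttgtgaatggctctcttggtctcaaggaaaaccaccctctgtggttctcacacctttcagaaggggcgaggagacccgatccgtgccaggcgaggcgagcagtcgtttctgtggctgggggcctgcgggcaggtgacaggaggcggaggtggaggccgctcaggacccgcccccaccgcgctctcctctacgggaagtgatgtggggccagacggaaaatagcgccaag
Rab27a, second start, chr9:73063898-73064197, plus strand: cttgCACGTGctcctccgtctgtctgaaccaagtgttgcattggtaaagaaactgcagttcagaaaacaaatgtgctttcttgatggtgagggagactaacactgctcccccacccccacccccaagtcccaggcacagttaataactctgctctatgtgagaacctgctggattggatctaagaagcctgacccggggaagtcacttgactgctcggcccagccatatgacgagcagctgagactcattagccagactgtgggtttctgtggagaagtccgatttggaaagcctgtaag
Rab32, chr10:10558158-10558457, minus strand: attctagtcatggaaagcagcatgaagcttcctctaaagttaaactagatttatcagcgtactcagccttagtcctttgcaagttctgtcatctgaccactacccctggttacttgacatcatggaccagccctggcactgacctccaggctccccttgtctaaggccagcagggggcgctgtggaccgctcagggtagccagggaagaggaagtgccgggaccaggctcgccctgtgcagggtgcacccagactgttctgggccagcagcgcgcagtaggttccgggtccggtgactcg
Rab17, chr1:90967618-90967917, minus strand: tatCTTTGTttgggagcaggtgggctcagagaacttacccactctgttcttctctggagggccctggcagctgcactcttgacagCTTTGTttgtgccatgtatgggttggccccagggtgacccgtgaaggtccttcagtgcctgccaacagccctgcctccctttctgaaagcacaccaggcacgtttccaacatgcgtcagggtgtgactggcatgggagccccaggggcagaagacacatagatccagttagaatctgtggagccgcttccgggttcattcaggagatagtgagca
The Rab17 window held ACAAAG in reverse complement at 2 places, which began 247 and 165 bases before the start. The second Rab27a window held CACGTG, beginning 246 bases before the start. Neither the first Rab27a window nor the Rab32 window held any of the 4 motifs, which says only that these letters are not in these 300 bases. Of all 32851 windows, 18.7% held ACAAAG, 14.2% CATGTG, 7.15% CACGTG and 3.77% TCATGTG. Of the 59 windows of the 47 members that had one, 3 held ACAAAG, 6 CATGTG, 6 CACGTG and 3 TCATGTG. A match is a description of letters and says nothing of binding.

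Depth and sample identity were read from the values. The spacing of the lowest FPKM values (fragments scaled by transcript length and library depth, as deposited) implied a depth, in units of 1e6 fragments, of about 46.1 in YUMM1.7, 86.6 in YUMM2.1 and 67.7 in YUMM1.1. A transcript of 2 kb with 3 fragments would then read 0.0325 FPKM in YUMM1.7, 0.0173 in YUMM2.1 and 0.0222 in YUMM1.1. Rpl41, a ribosomal gene that all cells use, was also listed at 0 in YUMM1.7, and a listed 0 is therefore not read as absence. Of 8 melanocyte markers in the table, 0 reached 1 FPKM in YUMM1.7, 3 in YUMM2.1 (Sox10, Mlana and Mitf) and 1 in YUMM1.1 (Sox10). Tyr, Tyrp1 and Dct were at most 0.279 FPKM in every line, and Slc45a2 and Gpr143 were listed at 0 in all 3. The summed FPKM of the 8 was 0.904 in YUMM1.7, 51.9 in YUMM2.1 and 108 in YUMM1.1. Most of it was Sox10, at 44.3 in YUMM2.1 and 107 in YUMM1.1. Mitf (0.617 FPKM in YUMM1.7, 0.188 in YUMM1.1) and Tyr (0.279 and 0.261) did not share the order of Sox10 between these lines. Mlana and Dct, listed at 0 in YUMM1.7, did. The sum of 5 fibroblast markers was 155 in YUMM1.7, 3.91 in YUMM2.1 and 0.704 in YUMM1.1. In YUMM1.7, Col1a2 gave 127 of it, Pdgfra 13.9 and Pdgfrb 13.0, with Thy1 at 0.0268. Leukocyte markers (5), endothelial markers (3) and epithelial markers (4) summed to at most 0.193 FPKM in any line. What part the fibroblast markers (mostly Col1a2) and the near absence of Sox10 in YUMM1.7 have in the results below was not tested.

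Of the 3 melanosome members, Rab38 had the widest difference on the log2(FPKM + 1) scale, Rab32 was within 2-fold in all lines, and Rab27a reached 1 FPKM in YUMM2.1 only. Here and below a gene is past the 2-fold rule, or called, where log2(FPKM + 1) differs by 1 or more, which takes a wider ratio in genes near or under 1 FPKM. Rab38 stood at 0.179 FPKM in YUMM1.7, 12.7 in YUMM2.1 and 19.6 in YUMM1.1. YUMM1.7 thus lay far under both other lines, on about 9 fragments against about 1182 in YUMM2.1 and 1433 in YUMM1.1. The ratio of YUMM1.7 to YUMM1.1 was 0.00914, with a 95% interval for counting error of 0.0042 to 0.0175, and the ratio to YUMM2.1 was 0.0142 (0.00651 to 0.0272). Between YUMM2.1 and YUMM1.1 the ratio was 0.645 (0.597 to 0.697). In a bulk library, fewer cells with a transcript and less of it per cell cannot be told apart.

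Rab32, the close relative of Rab38 with which it shares functions in pigment cells, stood at 11.95 FPKM in YUMM1.7, 7.03 in YUMM2.1 and 8.96 in YUMM1.1. Its highest value was 1.7 times its lowest, and on the log2(FPKM + 1) scale its largest difference between lines was 0.69. Rab32 alone thus made up 98.5% of the summed FPKM of this pair in YUMM1.7, against 35.7% in YUMM2.1 and 31.3% in YUMM1.1. These shares do not depend on how the libraries were scaled to each other. Rab7l1, listed by RefSeq as Rab29 and the third relative of this branch, is not a member by its spelling. It stood at 3.04 FPKM in YUMM1.7, 11.6 in YUMM2.1 and 11.04 in YUMM1.1, with its lowest value in the same line as Rab38.

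Rab27a had 0.0223 FPKM in YUMM1.7, 1.07 in YUMM2.1 and 0.00504 in YUMM1.1. It passed the filter of 1 FPKM only through YUMM2.1, where it rested on about 286 fragments against about 3 in YUMM1.7 and 1 in YUMM1.1. Among the 57 members Rab27a ranked 51 in YUMM1.7, 42 in YUMM2.1 and 51 in YUMM1.1. The ratio of YUMM1.7 to YUMM2.1 was 0.0208 (0.00403 to 0.0581), and that of YUMM1.7 to YUMM1.1 was 4.43 (0.353 to 231), which counting error leaves unresolved. As a plain ratio its spread, 213 (39.8 to 8866) for YUMM2.1 to YUMM1.1, was wider than that of Rab38, on far fewer fragments. Its paralog Rab27b, a regulator of granule and exosome release, had 0.295 FPKM in YUMM1.7, 1.39 in YUMM2.1 and 0.00209 in YUMM1.1. Both Rab27 genes were thus highest in YUMM2.1. Rab27b ranked 41 in YUMM1.7, 40 in YUMM2.1 and 54 in YUMM1.1, where it held about 0 fragments.

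**Figure D1:**
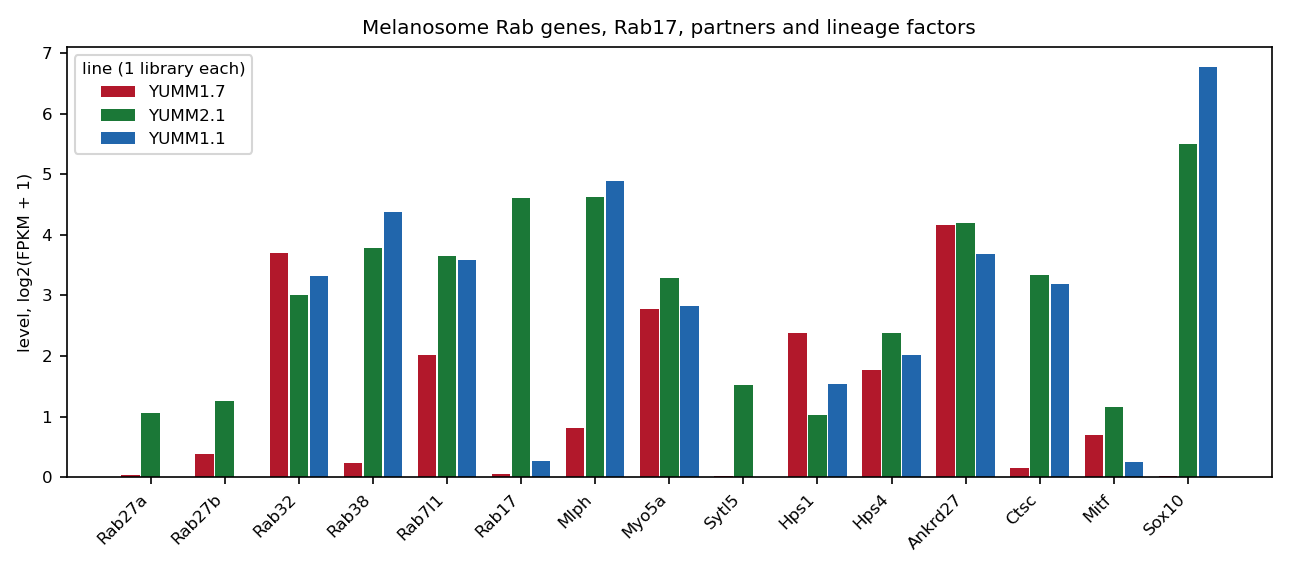
Level of the melanosome Rab genes, their relatives, partners, the Rab38 neighbor Ctsc and 2 lineage factors as log2(FPKM + 1) on the vertical axis, 1 bar per line and library (YUMM1.7 red, YUMM2.1 green, YUMM1.1 blue). Rab38, Mlph, Ctsc and Sox10 have short or absent bars in YUMM1.7 and tall bars in both other lines, while Rab32 has bars of similar height in all 3.

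The partners of the melanosome members split the same way between lines for some genes and not for others. Mlph, the Rab27a linker, stood at 0.751 FPKM in YUMM1.7, 23.5 in YUMM2.1 and 28.8 in YUMM1.1. The motor gene Myo5a was within 2-fold, at 5.81 FPKM in YUMM1.7, 8.70 in YUMM2.1 and 6.09 in YUMM1.1. Of the 16 Rab27 effector and regulator genes in the table only 6 passed the filter. The counts of these and the other partner genes stand beside the shares of all symbols that were called. These were 13.5% higher and 9.91% lower for YUMM1.7 against YUMM1.1, 19.5% and 11.7% for YUMM1.7 against YUMM2.1, and 6.21% and 7.64% with YUMM2.1 set against YUMM1.1. For YUMM1.7 against YUMM1.1, 0 of the 6 were higher and 1 lower (Mlph). For YUMM1.7 against YUMM2.1, 0 were higher and 2 lower (Mlph and Sytl5, a Rab27 effector at 0.00981 FPKM in YUMM1.7 and 1.86 in YUMM2.1). For YUMM2.1 against YUMM1.1, Sytl5 was higher (listed at 0 in YUMM1.1) and Tbc1d10a, a Rab27a inactivator, was lower (11.8 FPKM in YUMM2.1 against 26.0 in YUMM1.1). Sytl5 passed the filter of 1 FPKM only through YUMM2.1, so the filter itself favors a difference in it.

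The activators of Rab32 and Rab38 were present in every line. Hps1 stood at 4.18 FPKM in YUMM1.7, 1.05 in YUMM2.1 and 1.90 in YUMM1.1, and Hps4 at 2.42 in YUMM1.7, 4.19 in YUMM2.1 and 3.06 in YUMM1.1. Ankrd27, whose product VARP binds both GTPases, stood at 17.0 FPKM in YUMM1.7, 17.3 in YUMM2.1 and 11.9 in YUMM1.1. Among all 6 genes of that list only Hps1 was past the 2-fold rule in any comparison, higher in YUMM1.7 than in YUMM2.1 (difference 1.34).

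The lineage factors Sox10 and Mitf are given beside these levels. Sox10 stood at 0.00821 FPKM in YUMM1.7, 44.3 in YUMM2.1 and 107 in YUMM1.1, and Mitf at 0.617 in YUMM1.7, 1.23 in YUMM2.1 and 0.188 in YUMM1.1. Sox10 thus had its lowest value where Rab38 and Mlph had theirs, and Mitf its highest where both Rab27 genes had theirs. Mitf was past the 2-fold rule in no comparison (largest difference 0.91), and both Rab27 genes passed the filter through YUMM2.1 only. Of the 45 members past the filter, 21 were lowest in YUMM1.7, so a shared lowest line is common. That count depends on the scaling. It was 39 with the libraries rescaled to a common sum of FPKM, and 23 at a common upper quartile. The share of all symbols lowest in YUMM1.7 was not computed. With 3 libraries no correlation is given.

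The gene neighbors of Rab38 and Rab17 differed in how far they shared these orders. Ctsc, which encodes the lysosomal protease cathepsin C and lies next to Rab38 in the RefSeq order of coding genes, stood at 0.109 FPKM in YUMM1.7, 9.13 in YUMM2.1 and 8.13 in YUMM1.1. Tmem135, on the other side of Rab38, stood at 2.29 FPKM in YUMM1.7, 5.28 in YUMM2.1 and 3.24 in YUMM1.1, without the gap seen for Ctsc. Mlph lies 2 coding genes from Rab17, with Prlh between them listed at 0 in every line. Rab17 and Mlph agreed in YUMM1.7 and YUMM2.1 but not in YUMM1.1, where Mlph was high and Rab17 was not. Lrrfip1, the neighbor of Rab17 on its other side, stood at 33.1 FPKM in YUMM1.7, 45.4 in YUMM2.1 and 38.8 in YUMM1.1.

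Across the whole family, a core of members was abundant in every line and 16 members were past the 2-fold rule in at least 1 comparison. The share of all symbols past it in at least 1 comparison was not computed. In either direction, 17.8% of the 45 members past the filter and 23.4% of all symbols were past it for YUMM1.7 against YUMM1.1. For YUMM1.7 against YUMM2.1 these shares were 24.4% and 31.3%, and for YUMM2.1 against YUMM1.1 15.6% and 13.8%. Of the 57 members, 36 reached 1 FPKM in every line and 20 reached 20 FPKM in every line. Rab7, which controls traffic into lysosomes, had the highest level in each line, at 251 FPKM in YUMM1.7, 298 in YUMM2.1 and 275 in YUMM1.1. It held 17.1% in YUMM1.7, 19.99% in YUMM2.1 and 16.1% in YUMM1.1 of the summed FPKM of the family. Second in each line came Rab5c, an early endosome member, at 115 FPKM in YUMM1.7, 102 in YUMM2.1 and 164 in YUMM1.1. The 5 most abundant members together held 46.3% in YUMM1.7, 43.9% in YUMM2.1 and 45.5% in YUMM1.1 of the family sum, and Rab7, Rab5c and Rab9 were among these 5 in every line.

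**Figure D2:**
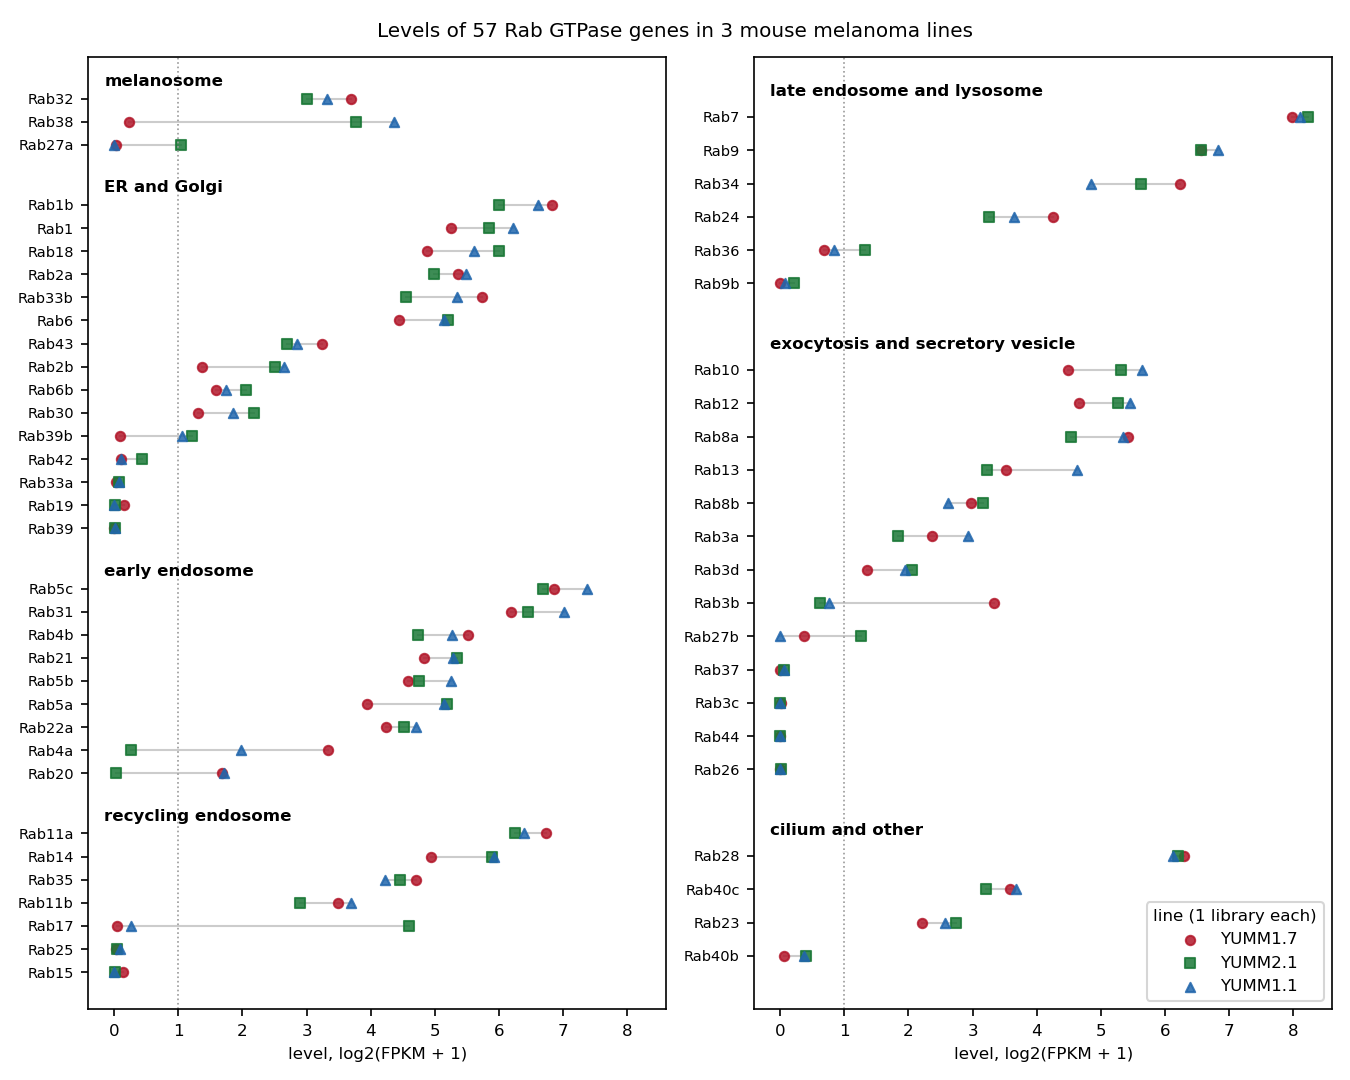
Level of all 57 members as log2(FPKM + 1) on the horizontal axis, in 7 groups by compartment, with 1 symbol per line and library (YUMM1.7 red circles, YUMM2.1 green squares, YUMM1.1 blue triangles), a gray bar joining the lines and a dotted line at 1 FPKM. Rab7 lies furthest right with its 3 symbols close together, and Rab38, Rab17, Rab4a, Rab20 and Rab3b have the longest bars.

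The remaining 12 members stayed below 1 FPKM in every line and got no fold. They were Rab9b, Rab15, Rab19, Rab25, Rab26, Rab33a, Rab37, Rab39, Rab3c, Rab40b, Rab42 and Rab44, several of which are known from neurons, epithelia or secretory cells. Of these, 6 were listed at 0 in at least 1 line. The other 45 members passed the filter. Those among them that were not at 1 FPKM in every line passed through their higher lines, so the filter itself favors a difference in them. A member was counted as higher or lower where log2(FPKM + 1) differed by 1 or more (2-fold on that scale).

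In the comparison of YUMM1.7 with YUMM1.1, 3 members were higher and 5 lower, against 13.5% of all 11741 symbols passing the filter that were higher and 9.91% that were lower. As shares of the 45 members these are 6.67% and 11.1%, and whether they differ from the shares of all symbols was not tested. The higher members were Rab3b, Rab34 and Rab4a, and the lower ones Rab38, Rab2b, Rab5a, Rab10 and Rab13. At 4-fold, 1 member was higher (Rab3b; 3.95% of all symbols) and 1 lower (Rab38; 3.06%). The median difference of the members was -0.21 and that of all symbols 0.02, and 29 of the 45 members were below 0. Rescaled to a common sum of FPKM, these medians were -0.94 and -0.62, with 1 member higher and 20 lower, against 5.84% of all symbols higher and 28.1% lower. Rab4a (0.66) and Rab34 (0.59) were then under the rule. With a pseudocount of 5, Rab4a (0.82), Rab2b (-0.64) and Rab13 (-0.89) were under it.

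Between YUMM1.7 and YUMM2.1, 4 members were higher and 7 lower, against 19.5% of all symbols higher and 11.7% lower. The shares of the members were 8.89% and 15.6%. Higher in YUMM1.7 were Rab4a, Rab3b, Rab20 and Rab33b, the last of which turned to -0.17 under the common sum and was 0.90 under the common upper quartile. Lower were Rab17, Rab38, Rab5a, Rab2b, Rab18, Rab39b and Rab27a. At 4-fold, 2 were higher (Rab4a and Rab3b; 5.54% of all symbols) and 2 lower (Rab17 and Rab38; 3.13%). The median difference was -0.18 for the members and 0.02 for all symbols, and with a filter at 5 FPKM it was 0.10 for the members and 0.16 for all symbols. Under the common sum the medians were -1.42 and -1.12, with 3 members higher and 28 lower against 4.48% and 54.7% of all symbols. Under a common upper quartile they were -0.46 and -0.22, with 3 members higher and 12 lower against 14.4% and 17.5% of all symbols. Rab27a (-0.27), Rab20 (0.52), Rab39b (-0.32) and Rab2b (-0.56) were under 2-fold with a pseudocount of 5.

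With YUMM2.1 set against YUMM1.1, 3 members were higher and 4 lower, against 6.21% of all symbols higher and 7.64% lower. These are 6.67% and 8.89% of the members, close to the shares of all symbols. Rab17, Rab27b and Rab27a were higher in YUMM2.1, and Rab4a, Rab20, Rab13 and Rab3a lower. At 4-fold, 1 was higher (Rab17; 1.47% of all symbols) and 0 lower (1.11%). The median difference was -0.15 for the members and -0.05 for all symbols, and it turned to 0.37 and 0.43 under the common sum, with 5 members higher and 2 lower against 17.8% and 2.82% of all symbols. Under the common upper quartile it was 0.04 and 0.11, with 4 members higher and 3 lower against 8.80% and 4.73% of all symbols. Rab13 (-0.87) and Rab3a (-0.65) were under the rule with the common sum, and Rab3a also with the common upper quartile (-0.92). With a pseudocount of 5, Rab3a (-0.61), Rab4a (-0.61), Rab20 (-0.54), Rab27b (0.35) and Rab27a (0.28) were under it. The comparisons share libraries, so their counts are not independent of each other.

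**Figure D3:**
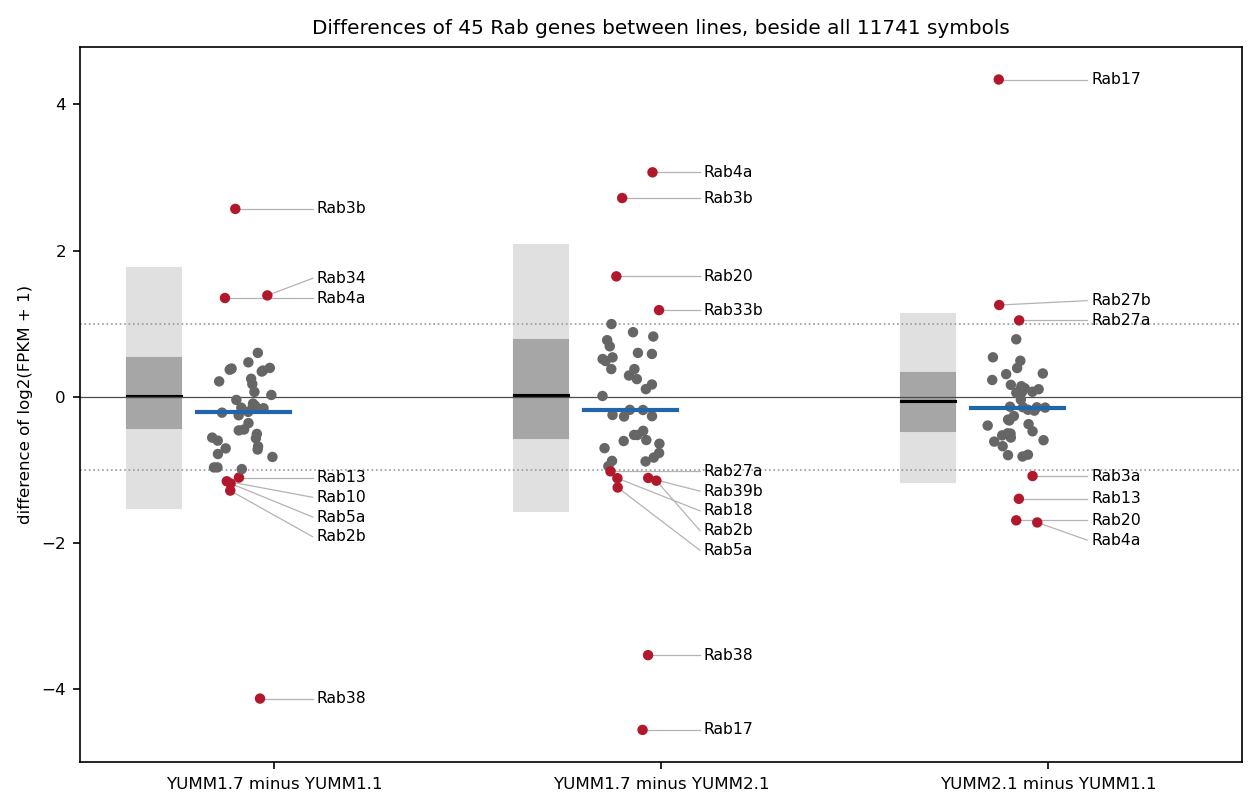
Difference of log2(FPKM + 1) on the vertical axis for the 45 members that passed the filter (points, red with names where the size is 1 or more, blue line at their median) in each of 3 comparisons, beside all 11741 symbols (light gray from the 5th to the 95th percentile, dark gray from the 25th to the 75th, black line the median). Rab17, Rab38 and Rab4a reach differences beyond 3 in size, and most points lie between the dotted lines at -1 and 1.

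Among recycling endosome members, Rab17 stood apart from the rest of its group. Rab17 is best known from epithelial cells and has also been placed at recycling endosomes and filopodia of melanocytes. It stood at 0.0303 FPKM in YUMM1.7, 23.3 in YUMM2.1 and 0.198 in YUMM1.1, so YUMM2.1 held nearly all of its signal. The ratio of YUMM2.1 to YUMM1.1 was 118 (77.2 to 183), and that of YUMM1.7 to YUMM2.1 was 0.0013 (0.000133 to 0.00397), with about 2 fragments in YUMM1.7. Rab11a, the general marker of the recycling endosome, had 105 FPKM in YUMM1.7, 74.9 in YUMM2.1 and 82.8 in YUMM1.1. Neither Rab11a nor Rab11b, Rab14 and Rab35 was past the 2-fold rule in any comparison, although Rab14 was near it (29.6 FPKM in YUMM1.7, 58.2 in YUMM2.1 and 59.8 in YUMM1.1).

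Among early endosome members, Rab4a and Rab20 differed most. Rab4a, which speeds receptors back to the surface, stood at 9.07 FPKM in YUMM1.7, 0.198 in YUMM2.1 and 2.95 in YUMM1.1. All 3 lines differed beyond counting error, with ratios of 45.7 (30.2 to 76.1) for YUMM1.7 to YUMM2.1 and 3.08 (2.64 to 3.6) for YUMM1.7 to YUMM1.1. Its paralog Rab4b was abundant in each, at 44.7 FPKM in YUMM1.7, 25.7 in YUMM2.1 and 37.5 in YUMM1.1, so Rab4a made up 16.9% of the pair in YUMM1.7, 0.766% in YUMM2.1 and 7.29% in YUMM1.1. The level of Rab4b is less certain, since most of its sequence is shared with another gene model.

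Rab20, found on endosomes and phagosomes, stood at 2.20 FPKM in YUMM1.7, 0.0209 in YUMM2.1 and 2.30 in YUMM1.1. YUMM1.7 and YUMM1.1 were close (ratio 0.957, 0.769 to 1.19), and YUMM2.1 held about 3 fragments. The neighbor Col4a2 did not share this order, at 6.35 FPKM in YUMM1.7, 43.7 in YUMM2.1 and 65.2 in YUMM1.1. On the other side Carkd (86.9 FPKM in YUMM1.7, 34.8 in YUMM2.1 and 55.6 in YUMM1.1) and then Cars2 (16.5 FPKM in YUMM1.7, 4.39 in YUMM2.1 and 7.77 in YUMM1.1) were lowest in YUMM2.1, as Rab20 was. Rab5a, which drives fusion of early endosomes, was lowest in YUMM1.7 (14.4 FPKM) and nearly equal in YUMM2.1 (35.5) and YUMM1.1 (34.1). Rab5b stood at 22.9 FPKM in YUMM1.7, 26.0 in YUMM2.1 and 37.2 in YUMM1.1 and Rab5c at 115 in YUMM1.7, 102 in YUMM2.1 and 164 in YUMM1.1, neither past 2-fold. Rab21, Rab22a, Rab31 and Rab4b also stayed within 2-fold in every comparison.

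Of the secretory members, Rab3b was the one higher in YUMM1.7 than in both other lines by the 2-fold rule. Rab3b, a Rab of regulated exocytosis, stood at 9.14 FPKM in YUMM1.7, 0.540 in YUMM2.1 and 0.707 in YUMM1.1. The ratio was 16.9 (12.7 to 23.3) against YUMM2.1 and 12.9 (9.62 to 17.5) against YUMM1.1, and the other lines did not differ beyond counting error (0.764, 0.5 to 1.13). Rab3a, the synaptic vesicle member, stood at 4.14 FPKM in YUMM1.7, 2.60 in YUMM2.1 and 6.62 in YUMM1.1, and Rab3d at 1.55 in YUMM1.7, 3.16 in YUMM2.1 and 2.87 in YUMM1.1. A different paralog therefore led the Rab3 set in each line, with 61.6% for Rab3b in YUMM1.7, 50.1% for Rab3d in YUMM2.1 and 64.9% for Rab3a in YUMM1.1.

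Rab13, a member of junctional and surface traffic, stood at 10.5 FPKM in YUMM1.7, 8.37 in YUMM2.1 and 23.6 in YUMM1.1, so YUMM1.1 was above both others. Rab10, which moves the glucose transporter Glut4 in fat cells, stood at 21.4 FPKM in YUMM1.7, 38.8 in YUMM2.1 and 48.9 in YUMM1.1. Rab8a, Rab8b, Rab12 and Rab3d were under the 2-fold rule on FPKM + 1 in all 3 comparisons.

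The 11 ER and Golgi members past the filter had a median difference of -0.56 for YUMM1.7 against YUMM1.1, with 0 higher and 1 lower. Against YUMM2.1 it was -0.59, with 1 higher and 3 lower. Of all symbols, 13.5% were higher and 9.91% lower for YUMM1.7 against YUMM1.1, and 19.5% and 11.7% against YUMM2.1. The median of all symbols was 0.02 in both comparisons. The medians for YUMM1.7 against YUMM1.1 were -0.57 in the exocytosis group and -0.46 in the early endosome group. They were -0.21 in the recycling endosome group, -0.13 in the late endosome group, -0.09 in the cilium group and 0.02 in the melanosome group. Against YUMM2.1 the medians were -0.18 in the exocytosis group, -0.18 in the early endosome group and 0.24 in the recycling endosome group. The late endosome, cilium and melanosome groups were then at 0.01, 0.10 and -1.02. Group counts and medians were not recomputed under other scalings. The common sum moved the median of all symbols for YUMM1.7 against YUMM1.1 to -0.62. Rab2b, of the ER to Golgi step, stood at 1.58 FPKM in YUMM1.7, 4.72 in YUMM2.1 and 5.29 in YUMM1.1. Rab18, known from lipid droplets and the ER, stood at 28.4 FPKM in YUMM1.7, 62.7 in YUMM2.1 and 47.5 in YUMM1.1. Rab39b, a neuronal Golgi member, stood at 0.0718 FPKM in YUMM1.7, 1.31 in YUMM2.1 and 1.09 in YUMM1.1.

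Going the other way, Rab33b, a Golgi member with a part in autophagy, stood at 52.0 FPKM in YUMM1.7, 22.3 in YUMM2.1 and 39.6 in YUMM1.1. Rab1, which RefSeq lists as Rab1a, stood at 37.0 FPKM in YUMM1.7, 56.2 in YUMM2.1 and 73.2 in YUMM1.1, while its paralog Rab1b stood at 112 in YUMM1.7, 62.8 in YUMM2.1 and 96.6 in YUMM1.1. Rab1b therefore made up 75.2% of the pair in YUMM1.7, 52.7% in YUMM2.1 and 56.9% in YUMM1.1.

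Of the 5 late endosome and lysosome members past the filter, only Rab34 was past the 2-fold rule, and only for YUMM1.7 against YUMM1.1. Rab34, linked to lysosome position and to cilia, stood at 73.9 FPKM in YUMM1.7, 48.4 in YUMM2.1 and 27.6 in YUMM1.1, and the ratio of YUMM1.7 to YUMM1.1 was 2.67 (2.55 to 2.8). Rab9, which returns receptors to the Golgi, stood at 93.8 FPKM in YUMM1.7, 93.1 in YUMM2.1 and 112 in YUMM1.1. Rab28, of cilia and photoreceptors, had the smallest spread of the 29 members that were past the 2-fold rule in no comparison, at 77.8 FPKM in YUMM1.7, 72.3 in YUMM2.1 and 68.9 in YUMM1.1 (highest over lowest 1.13). The widest of these 29 was Rab36 (2.48 times, at 0.614 FPKM in YUMM1.7, 1.52 in YUMM2.1 and 0.790 in YUMM1.1), a gene near the filter.

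Paralog sets as a whole mostly kept the same leading gene. In 12 of 15 sets the same paralog was the most abundant in all 3 lines, and the exceptions were the Rab3, Rab27 and Rab32 sets. In the Rab27 set the shares rest on sums of 0.318 FPKM in YUMM1.7, 2.47 in YUMM2.1 and 0.00713 in YUMM1.1, and the last is about 1 fragment. Of the 50-base words in a member's longest coding transcript, at most 0.347% occurred in another member. Words shared with any other gene exceeded 10% for 4 members. These were Rab43 (90.3%, with the gene model Gm45140), Rab4b (80.3%, with Gm21983), Rab7 (14.5%, with the pseudogene Rab7-ps1) and Rab5b (13.0%, with Gm13991), whose levels are therefore less certain.

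**Figure D4:**
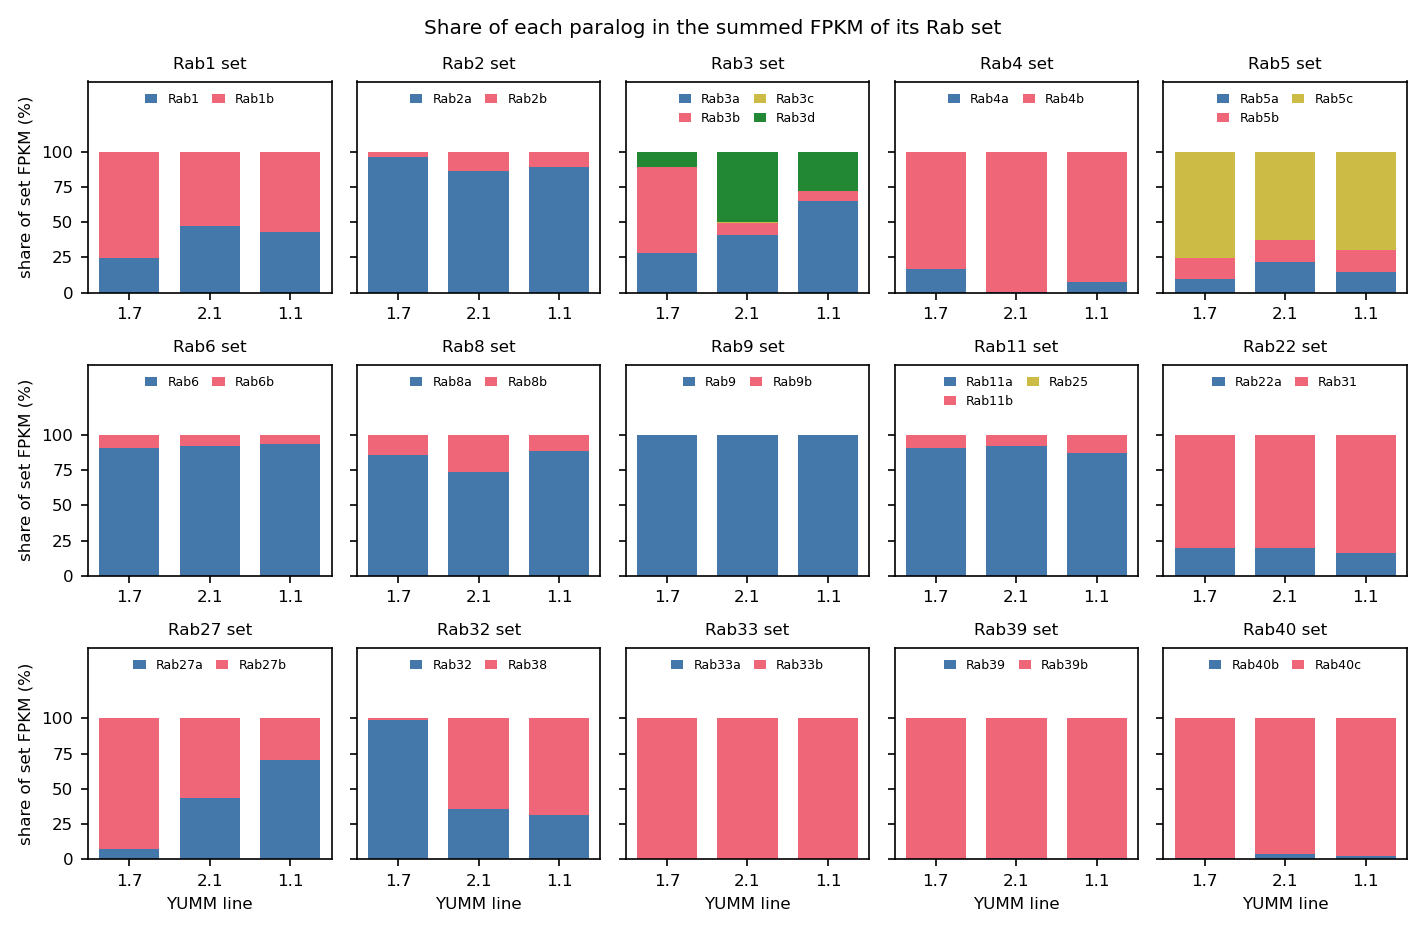
Share of each paralog in the summed FPKM of its set, in percent on the vertical axis, for 15 sets and for the lines YUMM1.7, YUMM2.1 and YUMM1.1 from left to right in each panel, 1 library per bar. The leading color changes between bars in the Rab3, Rab27 and Rab32 panels, where Rab32 fills 98.5% of the YUMM1.7 bar.

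Transcript length moved with the differences and is given beside them. Length here is the median of a gene's coding transcripts, or of all its transcripts where none is coding. In the shortest of 5 equal length classes (up to 1425 nt), the median difference of all symbols was 0.47 for YUMM1.7 against YUMM1.1 and 0.81 for YUMM1.7 against YUMM2.1, and in the longest class it was -0.12 and -0.36. Of the members higher in YUMM1.7 in at least 1 comparison, Rab3b, Rab4a, Rab20 and Rab34 have median lengths of 1078, 1249, 1392 and 1463 nt, and Rab33b has one of 3492 nt. Rab38, Rab18, Rab13 and Rab17, lower in YUMM1.7 in at least 1 comparison, have transcripts of 1078, 1184, 1261 and 1694 nt. Their direction in that comparison was opposite to that of the median of their length class. The other lower members, Rab2b, Rab5a, Rab10, Rab39b and Rab27a, have transcripts of 2619, 2366, 3513, 3401 and 3073 nt. Their direction was the same as that of their class median. What part length has in these differences was not tested. With the class median subtracted, an alternative added after the data were seen, 2 members were higher and 9 lower for YUMM1.7 against YUMM1.1, against 10.9% and 10.3% of all symbols. The counts were 4 and 7 for YUMM1.7 against YUMM2.1, against 14.8% and 12.2%, and 3 and 3 for YUMM2.1 against YUMM1.1, against 6.88% and 5.46%. In that form Rab38 was at -4.60 against YUMM1.1, Rab3b at 2.1, and Rab4a at 0.88, under the 2-fold rule. Rab20 (0.84), Rab27a (-0.81) and Rab39b (-0.90) for YUMM1.7 against YUMM2.1, and Rab3a (-0.75) for YUMM2.1 against YUMM1.1, were also under it.

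**Figure D5:**
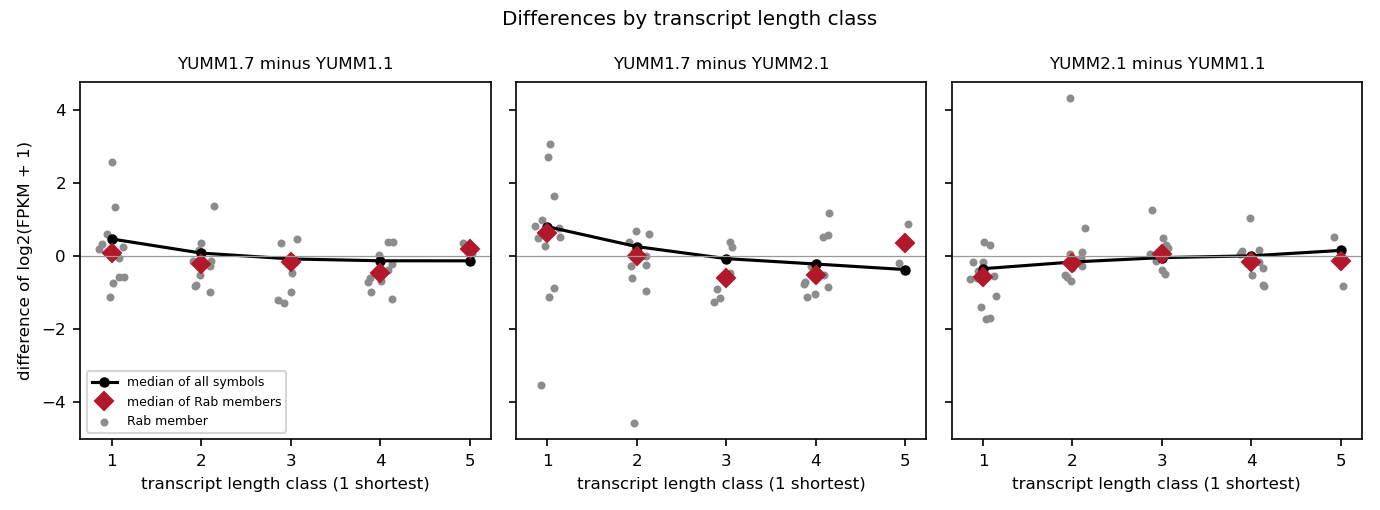
Difference of log2(FPKM + 1) on the vertical axis by transcript length class (1 shortest to 5 longest) on the horizontal axis for 3 comparisons, with gray points for members, red diamonds for their median and a black line for the median of all symbols. The black line falls with length in both comparisons of YUMM1.7, from 0.47 to -0.12 against YUMM1.1, and runs the other way for YUMM2.1 against YUMM1.1.

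The machinery that Rab proteins share held no gene past the 2-fold rule on FPKM + 1. Of the 8 genes of prenylation, escort and GDP dissociation inhibition, all passed the filter, and 0 were past that rule in any comparison. In either direction, 23.4% of all symbols were past it for YUMM1.7 against YUMM1.1. These shares were 31.3% for YUMM1.7 against YUMM2.1 and 13.8% for YUMM2.1 against YUMM1.1. Whether 0 of 8 differs from them was not tested. Gdi2, the inhibitor that extracts Rab proteins from membranes, stood at 93.1 FPKM in YUMM1.7, 80.0 in YUMM2.1 and 138 in YUMM1.1, and Rabac1, a Rab acceptor, at 153 in YUMM1.7, 106 in YUMM2.1 and 177 in YUMM1.1. Rabggta, a subunit of the enzyme that attaches the lipid anchor, had the widest difference of the list on the log2(FPKM + 1) scale (-0.87 for YUMM2.1 minus YUMM1.1), at 6.55 FPKM in YUMM1.7, 4.87 in YUMM2.1 and 9.72 in YUMM1.1. Chml, an escort protein gene near the filter, differed more as a plain ratio, at 1.05 FPKM in YUMM1.7, 1.26 in YUMM2.1 and 0.547 in YUMM1.1.

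The 20 exchange factor genes past the filter had median differences of -0.27 for YUMM1.7 against YUMM1.1, -0.45 for YUMM1.7 against YUMM2.1 and -0.03 with YUMM2.1 set against YUMM1.1. The medians of all symbols were 0.02, 0.02 and -0.05 in the same order. Of the 20 genes, 1 was higher and 1 lower for YUMM1.7 against YUMM1.1, beside 13.5% and 9.91% of all symbols. For YUMM1.7 against YUMM2.1, 2 were higher and 3 lower, beside 19.5% and 11.7%. For YUMM2.1 against YUMM1.1, 1 was higher and 1 lower, beside 6.21% and 7.64%. Rin1, an activator of Rab5, stood at 16.2 FPKM in YUMM1.7, 1.62 in YUMM2.1 and 5.19 in YUMM1.1. Dennd5a, of the DENN family of exchange factors, stood at 13.3 FPKM in YUMM1.7, 39.2 in YUMM2.1 and 30.8 in YUMM1.1.

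Of 21 endosomal effector genes past the filter, the widest difference was that of Rilpl2, at 61.4 FPKM in YUMM1.7, 15.1 in YUMM2.1 and 17.0 in YUMM1.1. It was the only effector higher in YUMM1.7 in either comparison of that line, and Mical1 and Ehbp1 were lower than in YUMM2.1. Mical1 stood at 0.0491 FPKM in YUMM1.7, 1.48 in YUMM2.1 and 0.00444 in YUMM1.1. It passed the filter only through YUMM2.1, so the filter itself favors a difference in it. All 16 melanosome biogenesis genes in the table passed the filter. Against YUMM2.1, 6 were higher in YUMM1.7 and 1 lower, with a median of 0.65, beside 19.5% and 11.7% of all symbols and their median of 0.02. Against YUMM1.1, 1 was higher and 2 lower, beside 13.5% and 9.91%. Among the 6 was Bloc1s2, a subunit of BLOC-1, at 510 FPKM in YUMM1.7 against 157 in YUMM2.1. Hps6, of BLOC-2, stood at 11.7 FPKM in YUMM1.7 against 4.03 in YUMM2.1. The rest of the 6 were barely past the rule, at differences from 1.002 to 1.07. The lower gene was Hps5, also of BLOC-2, at 2.20 FPKM in YUMM1.7 against 7.64 in YUMM2.1. The partner lists were not recomputed under other scalings or by length class. The common sum moved the median of all symbols for YUMM1.7 against YUMM2.1 to -1.12.

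In all, 77 of 93 partner genes passed the filter. For YUMM1.7 against YUMM1.1, 3 were higher and 4 lower, beside 13.5% and 9.91% of all symbols. For YUMM1.7 against YUMM2.1 the counts were 10 and 8, beside 19.5% and 11.7%. For YUMM2.1 against YUMM1.1 they were 3 and 3, beside 6.21% and 7.64%. Mlph was the partner furthest from its level in the other lines, at a difference of -4.09 between YUMM1.7 and YUMM1.1, close to the -4.13 of Rab38.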

How the data were processed

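Per the submitters' processing notes, the tools were TopHat2 2.0.9 (an aligner), Cufflinks and Cuffnorm (which estimate and scale expression), applied to 1 total RNA library per line. Genome build, annotation, filters and the scaling used were not stated in the labels or headers. FPKM per gene symbol, as the authors deposited them, were the only values, and 0 symbols were repeated. Values were read as log2(FPKM + 1) for symbols with at least 1 FPKM in at least 1 line, and a call was a difference of 1 or more, with no test. The members, lists and thresholds were chosen with earlier results of these data known. Named members were the 3 melanosome genes, every member past 2-fold, the most abundant of each group and up to 4 genes per partner list.

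Depth came from the spacing of low values in genes with 1 transcript of at least 3000 nt. Of these values, 76.7% in YUMM1.7, 83.6% in YUMM2.1 and 80.1% in YUMM1.1 lay within 0.2 of a whole multiple. Fragments per gene use the median GENCODE M21 coding transcript length and are approximate. Ratio intervals are 95% exact binomial (Clopper-Pearson) on those fragments and cover counting error only. All 57 members matched a length, some through RefSeq synonyms, as did 95.3% of the symbols passing the filter. Scripts were tested on simulated data. Python 3.11.15, numpy 2.4.6, pandas 2.3.3, scipy 1.17.1 and matplotlib 3.10.9 were used.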

Additional observations from a re-analysis of the deposited data

How the results depend on the processing

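Counts and medians of the members were recomputed under the alternatives below, of which the length classes were added after the data were seen. A pseudocount of 0.1 gave 8 lower members for YUMM1.7 against YUMM1.1, beside 13.8% of all symbols lower. A pseudocount of 5 gave 3 lower there (4.62% of all symbols) and 4 lower for YUMM1.7 against YUMM2.1 (4.43%). For YUMM2.1 against YUMM1.1 it gave 1 higher and 1 lower (1.81% and 3.87% of all symbols). In that comparison a filter at 5 FPKM gave 1 higher, beside 5.59% of the symbols past that filter. That filter also turned the median of YUMM1.7 against YUMM2.1 to 0.10. Rescaling to a common sum gave 1 higher, 20 lower and a median of -0.94 for YUMM1.7 against YUMM1.1, 28 lower and a median of -1.42 for YUMM1.7 against YUMM2.1 (where Rab33b reversed to -0.17), and 5 higher, 2 lower and a median of 0.37 for YUMM2.1 against YUMM1.1. A common upper quartile gave 12 lower for YUMM1.7 against YUMM2.1. A 4-fold call left 1 higher and 1 lower for YUMM1.7 against YUMM1.1, 2 and 2 for YUMM1.7 against YUMM2.1, and with YUMM2.1 set against YUMM1.1 it left 1 and 0. Subtracting the length class median gave 9 lower for YUMM1.7 against YUMM1.1. The median ratio kept every count within 1.5 times. No filter and leaving out symbols listed at 0 could not change a count of members. A member under 1 FPKM in every line cannot differ by 1, and no member past the filter was listed at 0. Of 26 differences past 2-fold, 11 were past it under every alternative that could be computed for them. Of 228 recomputed values 204 were past 2-fold, 23 were under it in the same direction and 1 reversed. The 228 include values under no filter, a filter at 5 FPKM and symbols listed at 0 left out. These choices only select genes and repeat each kept gene's value, so such values had to stay past 2-fold. The 204 of 228 is therefore no measure of stability. Where a value moved, the cause was not tested. No paired analysis was possible because each line has 1 library. The number of libraries and the scaling between them, rather than the depth, limit the comparisons of abundant members. Summed over all symbols, the deposited FPKM came to 1827835 in YUMM1.7, 693156 in YUMM2.1 and 1041960 in YUMM1.1. Fragments in single figures limit Rab27a, Rab27b, Rab38, Rab17 and Rab20 in their lowest lines.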
